A study of Mus musculus with 8 samples.

Results

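The m6A peaks of Lars2, the mouse gene for the mitochondrial leucyl-tRNA synthetase, were examined in mouse embryonic stem cells (ESCs). N6-methyladenosine (m6A) had been mapped by MeRIP-seq, in which poly(A) RNA is broken into fragments of approximately 150 nucleotides (nt), fragments carrying m6A are captured by an antibody (IP), and the captured RNA is sequenced beside RNA that was not captured (input). The cells were E14 ESCs carrying a doxycycline-inducible Dux transgene and a tdTomato reporter driven by the Mervl promoter, and these alleles were shared by both treatments. One treatment was DMSO and the other was doxycycline (Dox), each for 24 h, and each had 2 IP and 2 input libraries, which made 8 libraries. Dux is a transcription factor that drives ESCs toward a 2C-like state. The deposited peaks came as 1 list for each treatment, so no peak had a value per replicate, and no difference between the treatments could be tested. Lars2 peaks were those with exon blocks that share 1 or more bases with a Lars2 exon on the plus strand. Lars2 was selected on the measured score of its peak in these lists, and its scores and ranks are therefore descriptions. There were 3 Lars2 peaks among 31896 peaks, of which 2 came from the DMSO list of 18895 and 1 from the Dox list of 13001. RNA levels were not analysed here, so neither the cell type nor the induction of Dux was checked.

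Leucyl-tRNA synthetase joins leucine to its tRNA. The enzyme encoded by Lars2 works in mitochondria and is encoded in the nucleus, while the cytosolic enzyme comes from another gene, Lars. In mRNA, m6A is added mostly by the METTL3-METTL14 complex, commonly in the 5-base context DRACH, in which the A of the AC pair is methylated, and it is known to be frequent around stop codons and in 3′ UTRs. The cytoplasmic reader YTHDF2 binds m6A and promotes decay of the bound mRNA. Part of the mouse Lars2 3′ UTR is also known to resemble large-subunit ribosomal RNA, a molecule that itself carries m6A. The libraries were made from RNA selected with oligo dT beads. No ribosomal RNA sequence was compared here, and whether reads from it entered the Lars2 peaks was not tested.

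The Lars2 gene (ENSMUSG00000035202.8) lies on chromosome 9 from 123366927 to 123462666 on the plus strand of mm10 (GRCm38). Its transcript with the longest coding sequence, Lars2-201 (ENSMUST00000038863.8), has 21 exons and 3894 nt, made up of a 5′ UTR of 199 nt, a coding sequence of 2709 nt with the stop codon, and a 3′ UTR of 986 nt. The last exon (chr9:123461499-123462664) holds the whole 3′ UTR and all Lars2 peaks. The stronger peak covered chr9:123461789-123461938 in both lists. The weaker peak, which was in the DMSO list only, covered chr9:123461964-123462088. The windows below are shown because they hold the DRACH matches of these peaks. They run 5′ to 3′ on the plus strand of GRCm38, with the 5 matching bases in capitals, and are named by the position of the A in the AC pair, counted from the first base of the stop codon as 0.
A at 145, stronger peak: ctcagggaGGACAgaaacctc
A at 211, stronger peak: aggaatacAGACCgtgaaagc
A at 242, stronger peak: gatccttcTGACCttttgggt
A at 291, weaker peak: cacagggaTAACTggcttgtg
The first window lies at chr9:123461811-123461831, the second at chr9:123461877-123461897, the third at chr9:123461908-123461928 and the last at chr9:123461957-123461977. A further match of the stronger peak, AAACC with its A at 151, lies inside the first window in lower case. The first window is the one with GGAC, the core of the best known m6A context.

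The stronger Lars2 peak stood at the top of both lists. Its score, read here as the authors' −log10 p-value of IP over input, was infinite with DMSO, as it would be for a p-value stored as 0. In that list it shared rank 1 with the peaks in Rpl41, which encodes a ribosomal protein, and Npm1, which encodes the nucleolar protein nucleophosmin. These were the 3 infinite scores of the DMSO list, and they have no order among themselves. In the Dox list its score was 294, at rank 2 of 13001, behind the same Rpl41 peak, whose score was the 1 infinite value of that list. Median scores were 11.6 over all DMSO peaks and 11.5 over all Dox peaks, and the lowest score was 10 in each. Among peaks of the same length, 150 nt, the Lars2 peak was first of 1489 with DMSO and first of 1012 with Dox. The next score at this length was 136 with DMSO and 74.9 with Dox, both in Npm1. Stronger and weaker refer here to the score of a peak, which also moves with read depth and is not a level of m6A.

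**Figure D1:**
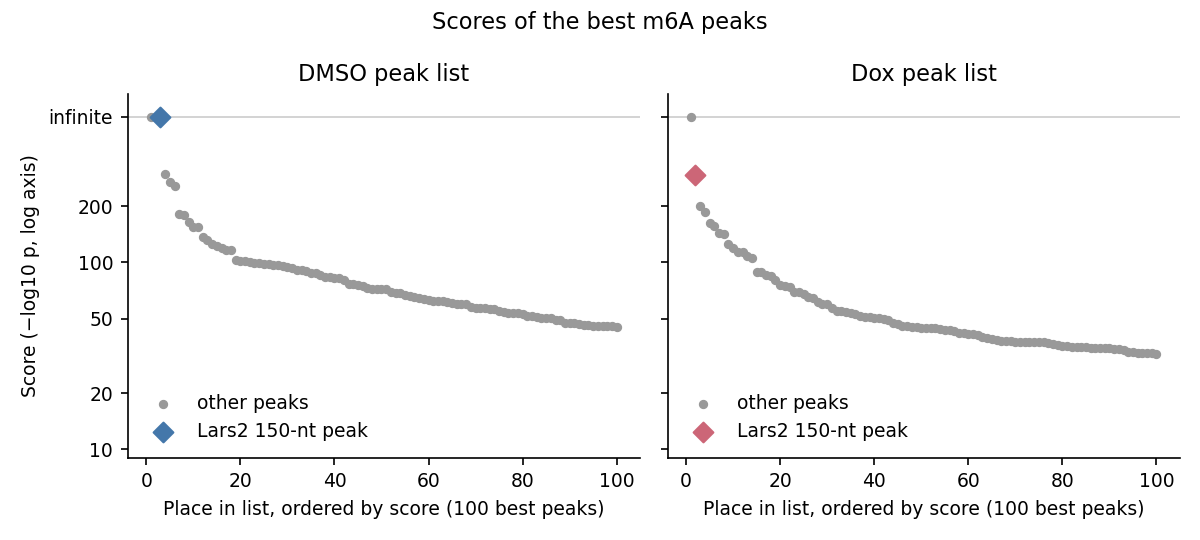
Scores (−log10 p, log axis, infinite values drawn on the top line) of the 100 best-scoring peaks of the DMSO list (left) and the Dox list (right), against their place in the list. The stronger Lars2 peak (diamond) is 1 of 3 infinite values with DMSO and has a score of 294 at rank 2 with Dox.

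The genes most like Lars2 in rank were those whose best peak stayed high in both lists, taking the worse of the 2 ranks. Rpl41 had rank 1 in both, Lars2 ranks 1 and 2, Npm1 ranks 1 and 4, Morf4l1, which encodes a chromatin protein, ranks 4 and 5, and Rpl13, which encodes another ribosomal protein, ranks 5 and 3 in the DMSO and Dox lists. Tpm3, which encodes a tropomyosin, had ranks 8 and 7, and Nono, which encodes an RNA-binding protein of paraspeckles, had ranks 10 and 9. Of the 10 best-scoring peaks of each list, 9 were also among the 10 best of the other. The Dox list added Zscan4b, a gene of the 2C-like state, with a score of 120 at rank 10 and rank 7239 in the DMSO list, and the DMSO list added Dnajc8, with a score of 181 at rank 7 and rank 19 in the Dox list. The Lars2 peak differed from the others of this group in its place on the mRNA. In each list the middle of 8 of the 10 best peaks lay in coding sequence, 1 lay in the 5′ UTR of Rpl41, and the Lars2 peak was the 1 in a 3′ UTR.

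The score of the stronger Lars2 peak went from infinite with DMSO to 294 with Dox, and no difference can be computed from an infinite value. Over all 1550 pairs of DMSO and Dox peaks with identical exon blocks and finite scores, 76.4% had the lower score with Dox. Of the 10 best-scoring DMSO peaks, Lars2 included, 9 had a lower score with Dox and 1 had an equal one. Read depth moves such scores and was not analysed here, so the lower score at Lars2 and a difference in depth cannot be told apart.

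The stronger peak had the same first and last base in both lists. Of the 1489 DMSO peaks of 150 nt, 972 (65.3%) were overlapped by a Dox peak, and 141 of these 972 (14.5%) had the same exon blocks in both lists. The 14.5% covers 150-nt peaks of any score. All 10 of the best DMSO peaks, which were 50 to 275 nt long, also had the same exon blocks in both lists. Together the DMSO peaks of Lars2 covered 275 bases and the Dox peak 150 bases. The 150 shared bases were 54.5% of the DMSO bases and 100% of the Dox bases.

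The weaker Lars2 peak was found with DMSO and not with Dox. It spanned 125 nt with a score of 13.6, at rank 3392 of 18895, and began after a gap of 25 nt downstream of the stronger peak. A gap of 25 nt separated 1606 of 18853 neighbouring pairs of DMSO peaks on a strand (8.52%), whether or not in the same gene. In the DMSO list, 99.8% of peaks had a length that is a multiple of 25. Of the 3094 DMSO peaks whose score was within 1 of its own, 2378 were overlapped by a Dox peak (76.9%, Wilson 95% interval 75.3 to 78.3, counting error only) and 716 (23.1%) were not. The weaker Lars2 peak was 1 of these 716.

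All Lars2 peaks lay in the first part of the 3′ UTR. The stronger one ran from 113 to 262 nt after the first base of the stop codon, with its middle base at 187 nt, or 18.8% of the way through the UTR. The weaker one ran from 288 to 412 nt with its middle at 350 nt, or 35.3% of the way. Among 4412 DMSO peaks with their middle in a 3′ UTR, 42.9% lay nearer to the stop codon than the stronger peak and 59.7% nearer than the weaker one, around a median of 243 nt. In the Dox list 47.8% of 3103 such peaks lay nearer than the stronger peak, around a median of 206 nt. The position of the peaks was therefore in the middle of the range for 3′ UTR peaks. Peaks covered 27.9% of the Lars2 3′ UTR with DMSO and 15.2% with Dox, and the 20 exons before the last one held none. Among coding genes with a peak whose middle base lay on the transcript with the longest coding sequence, 1093 of 5825 (18.8%) with DMSO and 1008 of 4679 (21.5%) with Dox had all such peaks in the 3′ UTR, as Lars2 did. Of 9 annotated Lars2 transcripts, Lars2-201 and a nonsense-mediated decay transcript held the stronger peak whole, and a retained-intron transcript held 111 of its 150 bases. The weaker peak lay in the first 2 of these only.

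**Figure D2:**
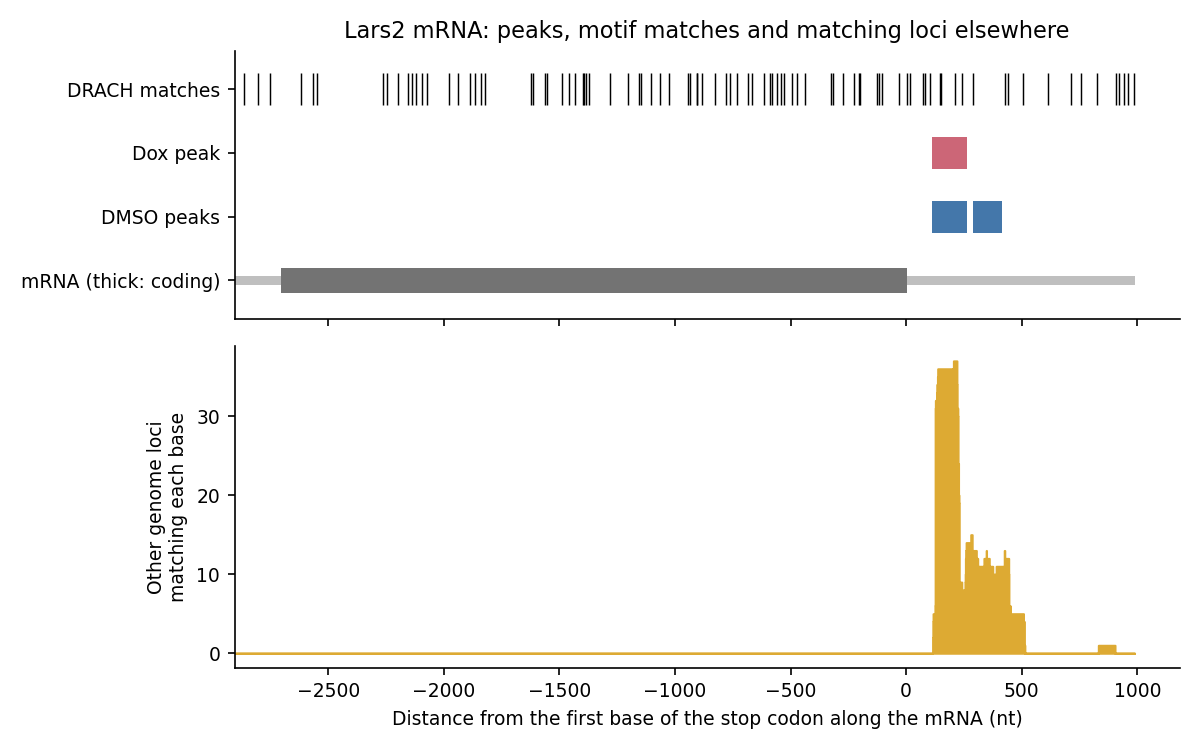
Top, the Lars2-201 mRNA (thick, coding sequence) with the DMSO peaks, the Dox peak and DRACH matches, by distance in nt from the first base of the stop codon. Bottom, the number of other genome loci matching each base, which reaches 37 under the stronger peak and is 0 over the coding sequence.

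Both peaks lay in a stretch of the mRNA that had matches elsewhere in the genome. When Lars2-201 was searched against the primary GRCm38 sequences (blastn, expectation of at most 1e-10), matches clustered in a segment of 399 nt, 10.2% of the mRNA, from 115 to 513 nt after the first base of the stop codon (chr9:123461791-123462189). It held 148 of the 150 bases of the stronger peak and all 125 bases of the weaker one. The segment had 52 matches on 18 chromosomes, 29 on the same strand and 23 on the opposite one, each 55 to 244 nt long and 77.1% to 98.8% identical. Of the 3495 other bases of the mRNA, 72 had a match, to 1 locus each. GC content was 50.4% in the segment and 44.0% in the rest of the 3′ UTR.

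Of the 52 loci, 45 overlapped the stronger peak and 16 the weaker one, 12 of them overlapped both, and 3 overlapped neither. The median identity was 82.4% for the loci at the stronger peak and 93.3% for those at the weaker one. Under the stronger peak, 99 bases from 126 to 224 nt were matched by at least 30 loci each, and the 38 loci that touched this core had a median identity of 82.1%, with 5 of them at 90% or more. The 14 loci elsewhere in the segment had a median identity of 94.3%, with 11 of them at 90% or more. At the bases of the weaker peak the number of matching loci was between 10 and 13. Of the 52 loci, 2 lay in an annotated exon, one in AA474408 and one in the antisense gene Gm15564, and none in an exon of a protein-coding gene. None of the 52 loci carried a peak in the DMSO list or in the Dox list. Peaks are given as exon blocks and 50 of the 52 loci lay in no annotated exon, so this outcome was largely set beforehand. It does not tell where the reads came from, which was not tested. Other 150-nt peaks, searched by themselves, mostly had no peak at their matching loci either. This held for 340 of 412 such peaks with DMSO (82.5%) and for 253 of 318 with Dox (79.6%).

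**Figure D3:**
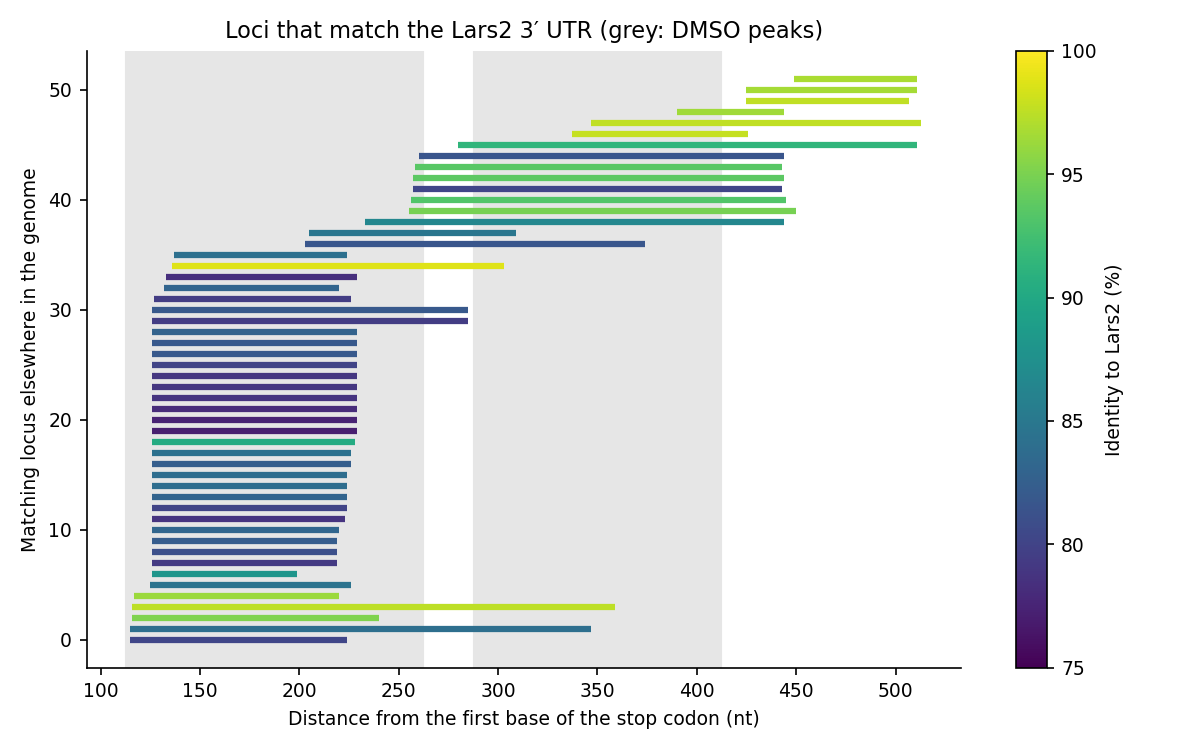
Each line is one of the 52 loci elsewhere in the genome that match the Lars2 3′ UTR, drawn over the part it matches (nt from the first base of the stop codon) and coloured by its identity in percent. Many short matches of lower identity stack under the stronger peak (left grey band), and the weaker peak (right grey band) lies under fewer matches, most of them of higher identity.

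No other locus was near-identical to a whole Lars2 peak, taken as 98% identity or more over 90% or more of the peak. The closest to the stronger peak was on chromosome 12 within the span of Gphn, outside its exons (chr12:78350930-78351076), at 97.3% identity over 98.0% of the peak. A locus on chromosome 6 (chr6:49236491-49236617, minus strand) had a higher identity, 99.2%, over 84.7% of the peak. For the weaker peak, chr19:40119743-40119867 matched the full length at 97.6% identity. By this strict measure 7.16% of DMSO peaks and 8.23% of Dox peaks had a near-identical locus. Among the 100 best-scoring peaks the share was 17.0% with DMSO and 23.0% with Dox. At 95% identity over 50% of the peak, where the stronger Lars2 peak had 4 other loci, 55.0% of the 100 best DMSO peaks and 62.0% of the 100 best Dox peaks had one, beside 12.5% and 14% of all peaks. How reads with several matches were counted is not given in the sources used here, and their part in the Lars2 score was not tested.

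Against peaks of its own length, the Lars2 peak had many partial matches. The peak searched by itself had 43 other loci on 17 chromosomes, with a median identity of 81.1%. No other locus was found for 72.3% of 150-nt DMSO peaks and 68.5% of 150-nt Dox peaks, and at least 43 were found for 37 (2.48%) and 26 (2.57%), Lars2 included. The next best scorer of this length, Npm1, had 21. Of the 10 best 150-nt peaks, 7 with DMSO and 8 with Dox had at least 1 other locus, and only Cdca8, with 1475 in the DMSO list, had more than Lars2.

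**Figure D4:**
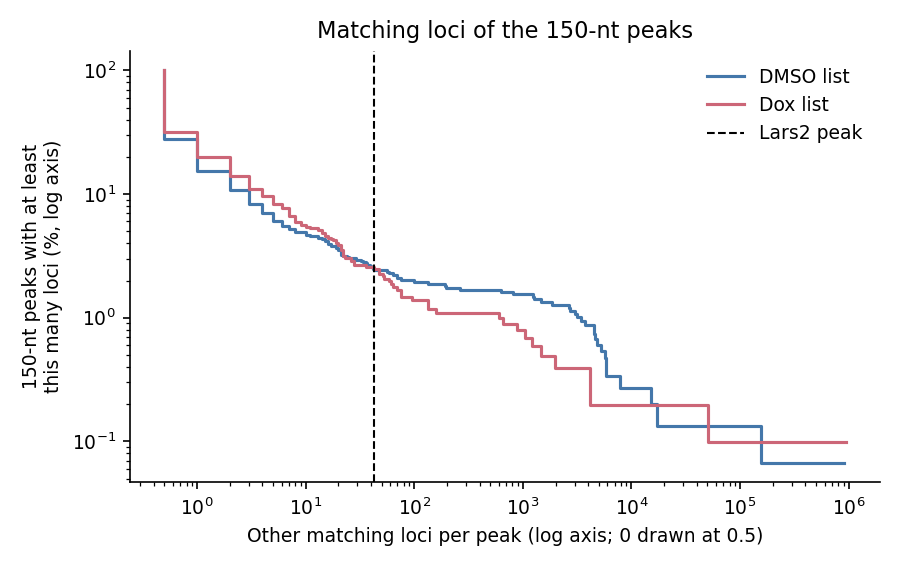
Share of the 150-nt peaks of each list (percent, log axis) that have at least a given number of other matching loci (log axis, 0 drawn at 0.5). The stronger Lars2 peak has 43 (dashed line), a number reached by 2.48% of DMSO and 2.57% of Dox peaks of this length.

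DRACH was searched as A, G or T, then A or G, then AC, then A, C or T. The stronger peak held 4 matches and the weaker peak 1. The stronger peak was ordinary in this measure, since 51.6% of 150-nt DMSO peaks and 53.2% of 150-nt Dox peaks held at least 4, with a median of 4 in each list. The weaker peak was below the median of 3 for 125-nt DMSO peaks, of which 95.7% held at least 1. GGAC, which overlaps DRACH where A, C or T follows it, occurred once in the stronger peak and not in the weaker one, while 59.4% of 150-nt DMSO peaks, 62.6% of 150-nt Dox peaks and 55.6% of 125-nt DMSO peaks held it. On the opposite strand, each Lars2 peak held 1 DRACH match and no GGAC. The Rpl41 peak that ranked first in both lists held no DRACH match in its 50 nt.

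DRACH and GGAC matches were also counted over the whole mRNA. Lars2-201 has 90 DRACH matches, of which 3 start in the 5′ UTR, 65 in the coding sequence and 22 from the stop codon on. The peaks covered 275 of the 3894 nt and held 5 of the 90 matches. DRACH matches numbered 2.31 per 100 nt over the whole mRNA and 2.22 per 100 nt from the stop codon on. Of 29 GGAC matches, 24 were in the coding sequence, where no peak was called, and 1 was in a peak. At the A of the AC pair in the GGACA match, 36 other loci aligned to Lars2, and at the A of TGACC there were 8. GC content of the stronger peak was 53.3%, close to the median of 52.7% for 150-nt DMSO peaks, and that of the weaker peak was 48.0%, under the median of 52.8% for its length.

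Peaks were also counted in the other aminoacyl-tRNA synthetase genes, whose enzymes load each tRNA with its amino acid. Of 17 mitochondrial synthetase genes, peaks were found in 8 with DMSO (47.1%) and in 5 with Dox (29.4%), beside 27.5% and 22.1% of 22028 protein-coding genes. All 5 with a Dox peak also had a DMSO peak. The 22028 genes were counted whether or not they are expressed in these cells. RNA levels were not analysed, so expression and m6A cannot be told apart in these shares. Without Lars2, 7 and 4 of 16 genes carried a peak, and their best scores ran from 10.8 to 13.3 with DMSO and from 10.1 to 12.9 with Dox. The highest of these was 13.3 in Fars2, for phenylalanine, and the weaker Lars2 peak alone, at 13.6, was above it. Aars2, for alanine, had a score of 12.9 with DMSO and 11.1 with Dox. Iars2, for isoleucine, had 11.3 and 12.9, and Tars2, for threonine, had 11.5 and 10.1. In these 3 genes the best peak lay in the 3′ UTR, as in Lars2. Ears2, Mars2 and Pars2, for glutamate, methionine and proline, had DMSO peaks only, with best scores of 11.3, 12 and 10.8 in coding sequence.

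None of the cytosolic synthetase genes had a score near that of Lars2. The genes called cytosolic here include those whose enzyme serves both the cytosol and mitochondria. Of 20 genes, 18 had at least 1 peak with DMSO (90%) and 14 with Dox (70%). This was beside 27.5% and 22.1% of all protein-coding genes, expressed or not. There were 65 and 43 peaks in the cytosolic genes. Lars, the cytosolic counterpart of Lars2, and Farsa carried none in either list. The best scores were 42.4 in Qars, for glutamine, with DMSO and 21.3 in Kars, for lysine, with Dox, and Kars had 23.7 with DMSO. Eprs and Sars, for glutamate with proline and for serine, each had 20.7 with DMSO. Cars, for cysteine, had 18.3 and 14.2, and Nars, for asparagine, had 18.0 and 18.7 with DMSO and Dox. Aars had the most peaks, 8 with DMSO and 6 with Dox, with best scores of 15.2 and 16.3. Farsb, Iars, Mars and Rars had DMSO peaks only. The best scores of the remaining genes, Dars, Gars, Hars, Tars, Vars, Wars and Yars, were 11.1 to 14.2 with DMSO and 10.6 to 15.1 with Dox. At a score of at least 15, 1 mitochondrial gene was left in each list, which was Lars2, and 7 cytosolic genes in each, beside 5.72% of protein-coding genes with DMSO and 3.63% with Dox.

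**Figure D5:**
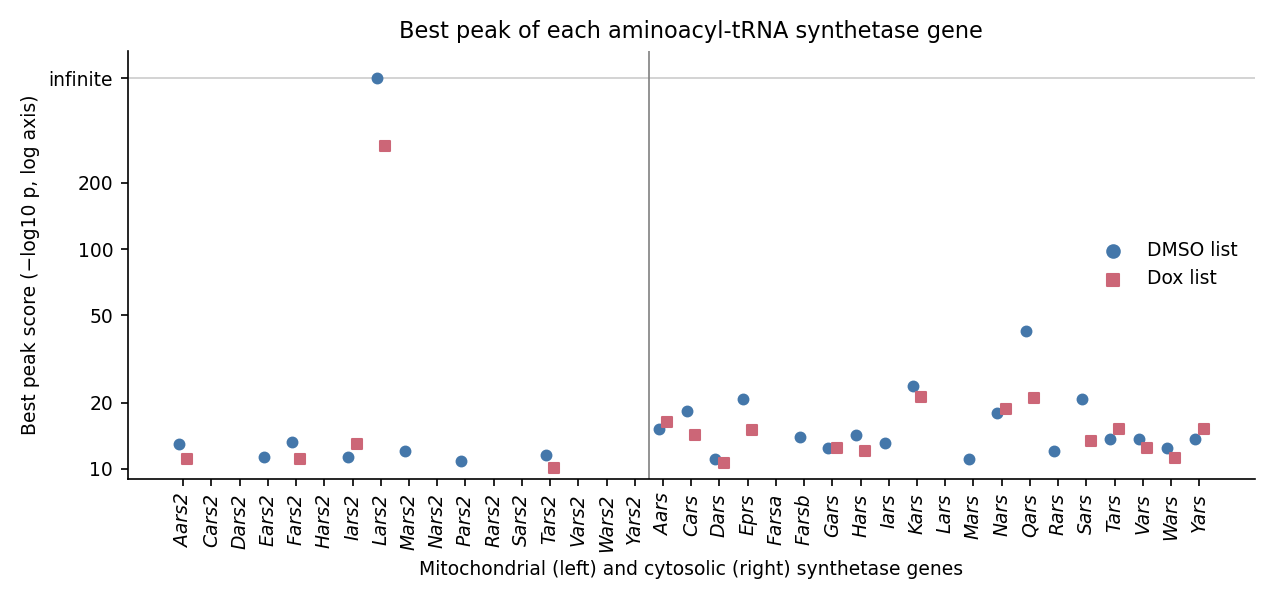
Best peak score (−log10 p, log axis, infinite drawn on the top line) of each mitochondrial (left of the line) and cytosolic (right) synthetase gene in the DMSO list (circles) and the Dox list (squares). A gene with no mark had no peak; Lars2 is infinite and 294, and the highest other value is 42.4 in Qars.

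Other peaks on the plus strand were far from Lars2. The nearest peak upstream on the plus strand was in Kif15, which encodes a mitotic kinesin, 349523 nt before the Lars2 gene with a score of 13.4 in the DMSO list and 352924 nt before it with a score of 10.2 in the Dox list. No peak of either list lay further along chromosome 9 on this strand, and 0 peaks lay on the opposite strand within the span of the gene.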

How the data were processed

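MeRIP-seq peaks of E14 ESCs given DMSO or Dox were analysed. According to the methods of the study and the submitters' processing notes, reads were filtered with fastp 0.19.4 and aligned to mm10 with HISAT2 2.2.1, and peaks were called with exomePeak2. Its version, its settings, how replicates were combined and how reads with several matches were counted are not given in the sources used here. The score is the value deposited with each peak, taken to be a −log10 p-value that the authors computed. The 8 libraries gave 1 pooled list per treatment, so depth and replicate spread were not analysed here, and no test was made.

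Peaks were compared with GENCODE vM21 on GRCm38. One transcript per gene was used for positions, the one with the longest coding sequence. Sequences were searched with blastn 2.17.0 against primary GRCm38 sequences (RefSeq, no patches or alternate loci). All peaks on named chromosomes were searched for near-identical loci (word size 22). Peaks of 125 or 150 nt and the Lars2-201 mRNA were also searched with word size 11 and an expectation of at most 1e-10. The 7 DMSO and 4 Dox peaks on an unplaced sequence were left out of sequence measures. The search for near-identical loci (word size 22) was tested on simulated data, with known bases changed. The simulated windows were unspliced stretches of 150 nt outside sequence marked as repeat, so spliced peaks and peaks in repeats were not covered. The search with word size 11 was not tested in this way. The genes named were Lars2, the genes of the 10 best-scoring peaks of each list, synthetase genes with a peak (of 17 mitochondrial and 20 cytosolic genes), genes at loci matching Lars2, and the genes of the nearest peaks. Lars, Farsa and Cdca8 were named after their values were seen. The members and lists were chosen with earlier results of these data known. Alternatives covered overlap, strand, score, length, position, identity and motif. Python 3.11.15, numpy 2.4.6, scipy 1.17.1, pysam 0.24.0 and matplotlib 3.10.9 were used.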

Additional observations from a re-analysis of the deposited data

How the results depend on the processing

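Of 48 alternative values, 23 were equal to the value given, or for counts within 1.5 times of it, and 25 were not. The count of Lars2 peaks did not change with at least 50% of a peak in Lars2 exons, with either strand or with introns. A score of at least 20 left 1 Lars2 peak in the DMSO list, and the shared bases were then 100% of the DMSO bases. The rank of 2 in the Dox list became 1 among peaks of the same length and did not change without peaks that had near-identical loci. Both outcomes were set by the 1 peak above it, in Rpl41, which is 50 nt long and has 0 near-identical loci. From the first base of the stop codon, the stronger peak lay at 113 nt by its first base and 262 nt by its last in both lists, and the weaker one at 288 and 412 nt. No other protein-coding Lars2 transcript held a peak, so this alternative gave no value. At 95% identity over 50% of the peak, the stronger peak had 4 other loci and the weaker one 5. At 90% over 90% they had 1 and 5. With GGAC in place of DRACH the stronger peak had 1 match and the weaker one 0, and with 50 bases added on each side they had 8 and 4 DRACH matches. At a score of at least 15, 1 mitochondrial synthetase gene was left in each list, and 7 cytosolic genes with DMSO and 7 with Dox. With as many peaks as the smaller list or with 50% overlap, synthetase counts stayed within 1.5 times. No paired analysis was possible because the lists hold no values of single replicates, which also prevented any run without a replicate. The depth behind each peak is unknown here.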
